A study of Mus musculus with 32 samples.

Results

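The response of Trex1 FL/FL R26 CreERT2 macrophages to 4-hydroxytamoxifen (4-OHT) was described across all genes, as the difference between 4-OHT-treated and untreated cells of the same genotype averaged over days 2, 3 and 4 after the end of exposure. It was read from 12 of the 32 RNA-seq libraries of the series, 6 from treated and 6 from untreated cultures with 2 per treatment and day, chosen by their genotype, treatment and day. The cells were bone marrow-derived macrophages (BMDMs), grown from mouse marrow in medium with L929 cell supernatant. Both Trex1 alleles of FL/FL cells are flanked by loxP sites, and treated cells received 2 µg/ml 4-OHT for 22 h. The Trex1 WT/FL cells used for reference carry 1 loxP-flanked and 1 wild-type allele, received the same treatment or none, and gave 12 further libraries on the same days. All cells of both genotypes carried CreERT2 at the ubiquitously active R26 (Rosa26) locus, so both genotypes were exposed to 4-OHT and to active Cre. Within FL/FL, the loss of Trex1 and the exposure to 4-OHT with Cre activity cannot be told apart. For that reason WT/FL values stand beside those of FL/FL for some of the genes and lists below. The plot of list medians also shows the averaged WT/FL median of each list in it. Where a gene is given with its FL/FL value alone, the loss of Trex1 and the exposure are not separated. The labels do not say whether the 2 libraries of a group came from separate animals or cultures, so p-values measure the spread between these libraries, which may be technical. In the averaged fit that spread also includes any difference of the effect between days.

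TREX1 is the major 3′ to 5′ DNA exonuclease of the cytosol. DNA that it leaves undegraded is detected by cGAS, whose messenger cGAMP activates STING, and this leads through TBK1 and IRF3 to transcription of type I interferon (IFN). Secreted IFN binds the receptor of IFNAR1 and IFNAR2, and the kinases JAK1 and TYK2 then activate transcription factors, STAT2 and its partner IRF9 among them, that bind the IFN-stimulated response element (ISRE) of IFN-stimulated genes (ISGs). CreERT2 is a Cre recombinase fused to a mutated estrogen receptor, which enters the nucleus on binding 4-OHT and excises DNA between loxP sites.

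The 12 libraries held between 36138473 and 63760884 estimated counts in genes. Levels are given as CPM (counts scaled by library size), differences as log2 fold changes of treated over untreated cells with their standard error (SE), and p-values were obtained with edgeR (quasi-likelihood) and adjusted by the Benjamini-Hochberg method. A gene is named as called when its adjusted p was below 0.01 and its log2 fold change beyond 1.5 in either direction, and is said to have risen or fallen when its adjusted p was below 0.01. The macrophage markers were abundant: Adgre1, which encodes F4/80, lay between 3037 and 4761 CPM in treated and between 2644 and 4668 CPM in untreated libraries, and Lyz2, which encodes lysozyme, at 15676 CPM or more in all 12. The summed level of 8 macrophage markers was 25559 to 38351 CPM in treated and 28938 to 46738 CPM in untreated libraries. Of the other cell types looked for, the 7 neutrophil and granule precursor markers together reached at most 11.1 CPM, the dendritic cell markers 2.49, the fibroblast markers 2.18 and the T cell markers 0.619, while the B cell, NK cell, mast cell and erythroid lists stayed at or below 0.333 CPM each. Of these lists, only the macrophage list held a called gene, which was Fcgr1. In bulk RNA a change in the number of cells of a type and a change in RNA per cell cannot be told apart.

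Averaged over the 3 days, 199 of 14106 tested genes were called higher after 4-OHT, which is 1.41% of the tested genes, and 57 were called lower, which is 0.404%. The highest increases included those of the ISGs Apol9a, Slfn4, Gbp10 and Ifit1bl1, and also those of Pou3f1 and Lipg. The deepest decreases were in Trex1 itself, in its neighbour Shisa5 and in the lectin gene Mgl2. Without the threshold on fold change, 1763 genes (12.5%) rose and 1623 (11.5%) fell, and the median log2 fold change of all tested genes was −0.03. These shares are the background for the averaged counts of list members that rose or fell below. In 190 of the 199 genes called higher, the 2 treated libraries lay above both untreated libraries on each of the 3 days, and the same held in the other direction for 47 of the 57 genes called lower. Over all tested genes such complete separation was found for 13.4% upward and 11.9% downward. The called genes were chosen by their difference in these same libraries, so their separation largely follows from the choice and is no further evidence.

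Trex1 (ENSMUSG00000049734.9, GRCm39 chr9:108887001-108888802, minus strand) was read first, as a check of the labels. It had 14 and 9 counts in the treated FL/FL libraries of day 2 and 0 counts in the 4 treated libraries of days 3 and 4. The untreated FL/FL libraries had 5459 and 4885 counts on day 2, 5746 and 4952 on day 3, and 5486 and 3109 on day 4. Treated and untreated libraries did not overlap, and the averaged log2 fold change was −10.20 (SE 0.338, adjusted p = 8.8e-08 by edgeR). With a floor of 3 counts per library standing for a count of 0, its level on day 3 was at least 1989-fold lower, and the bound for day 4 was 1075-fold. In WT/FL cells, which keep 1 allele, it fell by 0.91 on the log2 scale (SE 0.112, adjusted p = 0.000276 by edgeR). Every 31-base word of the annotated Trex1 transcripts also occurs in those of Atrip, a gene of the DNA damage checkpoint that overlaps it, so the estimate depends on how the authors' quantification divided shared reads.

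Shisa5 (ENSMUSG00000025647.16, chr9:108867633-108887029, plus strand), which lies tail to tail with Trex1 and overlaps its annotated bounds by 29 bases, fell as well. The gene encodes a membrane protein of the endoplasmic reticulum and is counted among the ISGs. Its level in treated FL/FL libraries was 26.4 and 24.2 CPM on day 2, 12.2 and 16.2 on day 3, and 20.4 and 20.2 on day 4. The untreated libraries stood at 372 and 348, 493 and 469, and 485 and 469 CPM on the same days, far above all treated ones. The averaged log2 fold change was −4.49 (SE 0.207, adjusted p = 6.65e-07 by edgeR). In WT/FL cells, 4-OHT gave a log2 fold change of −0.74 (adjusted p = 0.0105 by edgeR), and the difference between the genotypes was −3.73 (adjusted p = 2e-09). No 31-base word of its transcripts was shared with another gene.

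The other genes of the neighbourhood changed less. Atrip had 10.1 to 12.9 CPM in treated and 14.5 to 15.9 CPM in untreated libraries, a log2 fold change of −0.39 (SE 0.0587, adjusted p = 8.89e-05 by edgeR), and this did not differ between genotypes past the threshold (difference −0.16, adjusted p = 0.16). Pfkfb4, which encodes an enzyme that controls glycolytic flux, fell by 0.71 on the log2 scale (adjusted p = 1.77e-07 by edgeR), more than in WT/FL cells (difference −0.50, adjusted p = 3.26e-06). Tma7 and Ccdc51, on the far side of Atrip, had log2 fold changes of −0.08 and 0.00, and neither passed the test. These neighbours were chosen after their values were seen. Among the 6 tested genes whose start lies within 100000 bases of that of Trex1, Trex1 and Shisa5 were called.

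**Figure D1:**
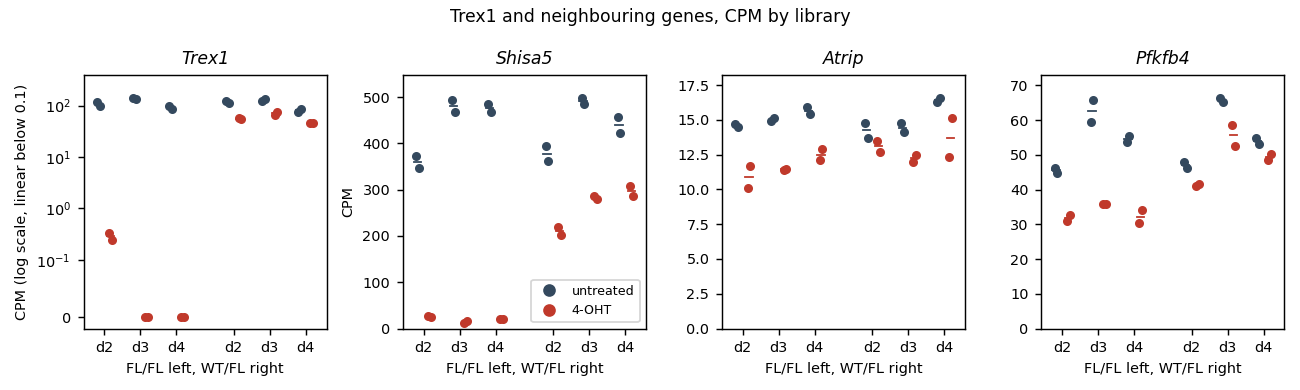
Levels of Trex1, Shisa5, Atrip and Pfkfb4 in CPM in each library (dots) of untreated and 4-OHT-treated cells by day, with FL/FL on the left and WT/FL on the right of each panel and short lines at the mean of 2 libraries. Trex1 is on a log axis that is linear below 0.1 CPM. Treated FL/FL libraries are at 0 CPM for Trex1 on days 3 and 4 and at 12.2 to 26.4 CPM for Shisa5, while Atrip moves by much less.

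The IFN pathway was ordered from ligand to target. Ifnb1, which encodes IFN-β, was barely expressed: the treated libraries held 18 and 12 counts on day 2, 15 and 20 on day 3, and 12 and 14 on day 4, and the untreated libraries between 0 and 2. After allowing for depth, the ratio of treated to untreated counts was 14.2, with an exact 95% interval from 6.6 to 36.2 that covers counting error only. The fitted log2 fold change was 3.66 (SE 0.592, adjusted p = 0.000183 by edgeR), against −0.09 in WT/FL cells, and the difference of 3.77 between the genotypes had an adjusted p of 0.0286, short of the threshold. Treated and untreated libraries did not overlap on any day. Ifna1, Ifna2, Ifna4 and Ifna5, which encode forms of IFN-α, had 0 counts in all 12 libraries.

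The receptor and its kinases changed little. Ifnar1 fell by 0.20 on the log2 scale (adjusted p = 0.00148 by edgeR), Ifnar2 and Jak1 had log2 fold changes of 0.02 and −0.07 that did not pass the test, and Tyk2 rose by 0.34 (adjusted p = 2.92e-05). Of the factors downstream, Stat2 lay between 574 and 876 CPM in treated libraries and between 127 and 384 CPM in untreated ones. It was called at 1.53 (SE 0.165, adjusted p = 0.0001 by edgeR), a value close to the threshold. Irf9, its DNA-binding partner, rose by 0.22 (adjusted p = 0.00193). Among negative regulators, Usp18, which encodes the ISG15 protease that also dampens receptor signalling, was called at 1.99 (SE 0.175, adjusted p = 3.18e-05 by edgeR). Socs1 rose by 1.39 (adjusted p = 1.58e-05 by edgeR), and Socs3 did not pass the test (−0.10, adjusted p = 0.392). In all, 7 of the 11 tested members of the list of type I IFN and its signalling rose, 1 fell and 3 were called higher, with a median log2 fold change of 0.34.

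Of 6 tested IRF genes, which encode IFN regulatory factors, Irf7 alone was called. This amplifier of IFN production stood at 1081 to 2613 CPM in treated and 261 to 793 CPM in untreated libraries (log2 fold change 2.07, SE 0.167, adjusted p = 1.58e-05 by edgeR). Irf1, Irf2 and Irf5 rose by 0.81, 0.37 and 0.42, Irf4 fell by 0.67, and Irf8, a lineage factor of monocytes, had −0.07 (adjusted p = 0.251). Among 25 tested genes of DNA and RNA sensing 13 rose and 1 fell. The 2 called were Zbp1, a sensor of left-handed nucleic acid (1.91, adjusted p = 6.81e-05 by edgeR), and Ifi204, a DNA sensor of the AIM2-like family (1.69, adjusted p = 0.000101). Of the axis that TREX1 restrains, Cgas rose from 9.35 to 27.9 CPM in untreated to 16.2 to 35.3 CPM in treated libraries, ranges that overlap across days but not within a day (log2 fold change 0.63, adjusted p = 0.00113 by edgeR). Sting1 had a log2 fold change of 0.02 (adjusted p = 0.842).

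The antiviral effector genes carried the broadest increase. Of 49 tested members of the 50 listed, 47 rose and 16 were called higher, with a median log2 fold change of 1.22 against −0.03 over all tested genes. The sole member that fell was Shisa5. By day, the median was 1.08, 0.94 and 1.63, and in WT/FL cells it was 0.18. Their summed level was 24361 and 24523 CPM in the treated libraries of day 2, 27473 and 26212 on day 3, and 29023 and 28887 on day 4. The untreated libraries summed to 11358 and 10141, 14076 and 12915, and 9044 and 9087 CPM, so treated and untreated cells were apart on each day.

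Rsad2, which encodes the antiviral enzyme viperin, stood at 1488 and 1614 CPM in treated cells on day 2, 1027 and 924 on day 3, and 1105 and 1169 on day 4. Untreated cells had 258 and 234, 225 and 212, and 79.1 and 108 CPM (averaged log2 fold change 2.79, SE 0.235, adjusted p = 2.81e-05 by edgeR). The fold change was largest on day 4, the day on which the untreated level was lowest. Ifi44, an ISG often used as a readout of the IFN response, was at 227 and 202, 382 and 335, and 353 and 336 CPM in treated libraries. In untreated libraries it was at 44.5 and 27.9, 86.2 and 71.4, and 26 and 29.4 CPM (averaged log2 fold change 2.77, SE 0.253, adjusted p = 4.8e-05 by edgeR). Ifit1bl1, a member of the IFIT family of RNA-binding proteins, lay between 208 and 319 CPM in treated and between 4.11 and 39 CPM in untreated cells, and was called at 3.73 (SE 0.463, adjusted p = 0.000329 by edgeR). The antiviral genes named by the study for quantitative PCR moved the same way, with log2 fold changes of 2.49 for Oasl1, 2.31 for Ifit3 and 1.06 for Oas1a, all at an adjusted p of 6.12e-05 or less by edgeR. Oas1a encodes a 2′-5′-oligoadenylate synthetase, rose on each day and stayed under the fold threshold.

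The promoters below belong to the 3 antiviral effector genes of largest averaged change whose RefSeq promoter holds the core of an ISRE, GAAANNGAA, in the 250 bases before the start. They are shown because this is the element that factors activated by the IFN receptor bind. Each line gives 100 bases read along the gene's strand, with GAAANNGAA or its reverse complement TTCNNTTTC in capitals. The sequences come from RefSeq's GRCm38.p6 table, and their positions from an exact match in GRCm39, chr19:34579418-34579517 (minus) for Ifit1bl1, chr12:26506517-26506616 (minus) for Rsad2 and chr19:34585177-34585276 (plus) for Ifit3b.
Ifit1bl1: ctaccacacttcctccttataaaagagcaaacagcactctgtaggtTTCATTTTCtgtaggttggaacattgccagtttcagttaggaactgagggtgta
Rsad2: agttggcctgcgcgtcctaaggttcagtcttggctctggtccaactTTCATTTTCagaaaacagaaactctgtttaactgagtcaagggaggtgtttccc
Ifit3b: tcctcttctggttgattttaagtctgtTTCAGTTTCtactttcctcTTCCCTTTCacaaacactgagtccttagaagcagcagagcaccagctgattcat

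A promoter window here runs from 250 bases before to 50 bases after the annotated start. GAAANNGAA, on either strand, was found in 45 of 129 windows of genes called higher (34.9%), in 5 of 46 of genes called lower (10.9%), in 20 of 38 of the antiviral effectors (52.6%) and in 762 of 10096 of all tested genes with a window (7.55%). Over all 27025 windows of the table the share was 8.57%. These are matches of letters and not binding sites, and GAAANNGAA can overlap the TTTGAA searched further below.

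The ISG15 conjugation system, which attaches the ubiquitin-like protein ISG15 to other proteins, rose in 6 of its 7 tested members, and 3 were called. Isg15 itself stood at 308 to 498 CPM in treated and 48.7 to 142 CPM in untreated libraries (log2 fold change 2.16, SE 0.192, adjusted p = 3.55e-05 by edgeR). Of the enzymes, the activating enzyme Uba7 rose by 0.87, the conjugating enzyme Ube2l6 by 1.45 and the ligase Herc6 by 1.77. The remaining member, Ube2e2, had 0.02 (adjusted p = 0.886 by edgeR).

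All but 1 of 17 tested genes of the GBP and IRG families, IFN-inducible GTPases that attack the vacuoles of intracellular pathogens, rose, and 11 were called. The median log2 fold change of the list was 1.80 and in this respect it lay highest of the 26 lists. Gbp4 stood at 29.4 to 50.7 CPM in treated and 2.13 to 11.8 CPM in untreated libraries (2.79, SE 0.238, adjusted p = 2.39e-05 by edgeR). Gbp10 had the largest change of the list at 3.84 (SE 0.548, adjusted p = 0.000187), but at no more than 4.56 CPM. It shares 74.9% of its 31-base words with other genes, and Tgtp1 and Tgtp2, at 3.02 and 2.55, share 85.7% and 90.5%, so reads of these genes could be divided differently.

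Among the genes of MHC class I antigen presentation, 19 of 20 rose, but H2-T22 alone was called, at 1.77 (SE 0.165, adjusted p = 4.12e-05 by edgeR). Tap1, which encodes part of the peptide transporter, stood at 393 to 504 CPM in treated and 169 to 245 CPM in untreated libraries (1.18, SE 0.0895, adjusted p = 1.76e-06). The non-classical genes H2-T23 and H2-Q4 rose by 1.28 and 1.09. H2-T22 shares 62% of its 31-base words with other genes and H2-Q4 56.4%, so their reads could be divided differently. The MHC class II list, by contrast, had a median log2 fold change of −0.51, and 3 of 9 tested members fell while 1, Ctss, rose (0.74). By day the median was −0.02, −0.67 and −0.32, and 0, 3 and 3 members fell. In WT/FL cells the averaged median was 0.26. Between the genotypes, 4 of the 9 differed downward and 1 upward at an adjusted p below 0.01 by edgeR, where 4.63% and 8.33% of all tested genes did. H2-Aa had 6.39 to 39.3 CPM in treated and 6.98 to 57.3 CPM in untreated libraries (−0.59, adjusted p = 0.00384 by edgeR). Ciita, the master regulator of this class, fell by 0.61 (adjusted p = 0.00496), and Cd74, the invariant chain, did not pass the test (−0.30, adjusted p = 0.116).

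Of 20 tested chemokine genes 10 rose, 1 fell and 7 were called higher. Cxcl10, a ligand of the chemokine receptor CXCR3, was at 747 and 801 CPM in treated cells on day 2, 263 and 219 on day 3, and 196 and 176 on day 4. Untreated cells had 113 and 99.9, 81.8 and 72.5, and 16.9 and 20.2 CPM (log2 fold change 2.59, SE 0.271, adjusted p = 0.000109 by edgeR). Its level was thus highest on day 2 in both arms, and the arms did not overlap on any day. Cxcl11, a second CXCR3 ligand, changed by 3.96 (SE 0.431, adjusted p = 2.17e-05) at no more than 4.12 CPM, and 42.7% of its 31-base words are shared. Ccl5, which encodes RANTES, rose from 3.06 to 19.1 CPM in untreated to 18.3 to 116 CPM in treated libraries (2.42, adjusted p = 2.76e-06), and Ccl7, a monocyte attractant, changed by 2.22 (adjusted p = 5.6e-07).

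The cytokine list had 18 tested members, of which 9 rose, 2 fell, and 3 were called higher and 1 lower. Tnfsf10, which encodes the death ligand TRAIL, was called at 2.03 (SE 0.257, adjusted p = 0.000307 by edgeR). Il27 and Csf1, the macrophage growth factor, were called at 1.56 and 1.55, close to the threshold. The decrease was in Vegfa, described below with the genes that fell in both genotypes. Of 20 genes of NF-kB subunits and targets 5 rose and 3 fell on average, where 12.5% and 11.5% of all tested genes did. By day, 5 rose and 0 fell on day 2, 4 rose and 6 fell on day 3, and 4 rose and 4 fell on day 4. Of all tested genes, 5.05%, 7.71% and 11.1% fell on these days, and the share that rose was not counted by day. The largest change of this list was that of Traf1 (0.68, adjusted p = 9.32e-05 by edgeR).

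On the cell surface, the activating antibody receptors Fcgr1 and Fcgr4 were called. Fcgr1 lay at 692 and 743 CPM on day 2, 910 and 954 on day 3, and 1092 and 1121 on day 4 in treated cells. Untreated cells had 243 and 233, 343 and 317, and 199 and 220 CPM, below the treated libraries throughout (1.82, SE 0.142, adjusted p = 9.76e-06 by edgeR). Fcgr4 changed by 1.86 (adjusted p = 2.13e-05). The sialic acid receptor Siglec1 and the receptor kinase Axl rose by 1.12 and 1.06. Of 17 tested ligands for T cells 8 rose, among them Slamf7 at 1.49 (SE 0.0427, adjusted p = 1.24e-11), Cd274, which encodes PD-L1, at 1.38 (adjusted p = 8.1e-11) and Cd40 at 1.21 (adjusted p = 0.000183). Tnfsf18, at no more than 1.12 CPM, was the 1 called (2.31, adjusted p = 0.000656).

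Beyond the named lists, the 12 largest increases that met the rule for naming included Apol9a, Pou3f1, Slfn4, Lipg and Ms4a4c. Apol9a, an apolipoprotein L gene, stood at 8.99 to 13.2 CPM in treated and 0.25 to 0.994 CPM in untreated libraries (log2 fold change 4.29, SE 0.27, adjusted p = 4.63e-07 by edgeR). Its paralogue Apol9b, with which reads may be shared, changed by 3.77. Pou3f1, a POU-domain transcription factor, was at 7.64 to 20.1 against 0.283 to 1.09 CPM (4.10, SE 0.293, adjusted p = 2.2e-06). Slfn4, of the Schlafen family, was at 36.1 to 67.3 against 1.36 to 4.73 CPM (4.00, SE 0.334, adjusted p = 2.75e-05). Lipg, which encodes endothelial lipase, reached 7.66 CPM on day 2 but no more than 0.136 CPM on day 4 in treated cells (3.76, adjusted p = 3.73e-07). Nos2, which encodes inducible nitric oxide synthase, was called at 2.98 (adjusted p = 2.59e-05), with levels between 1.68 and 10.9 CPM in treated and between 0 and 1.41 CPM in untreated libraries.

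**Figure D2:**
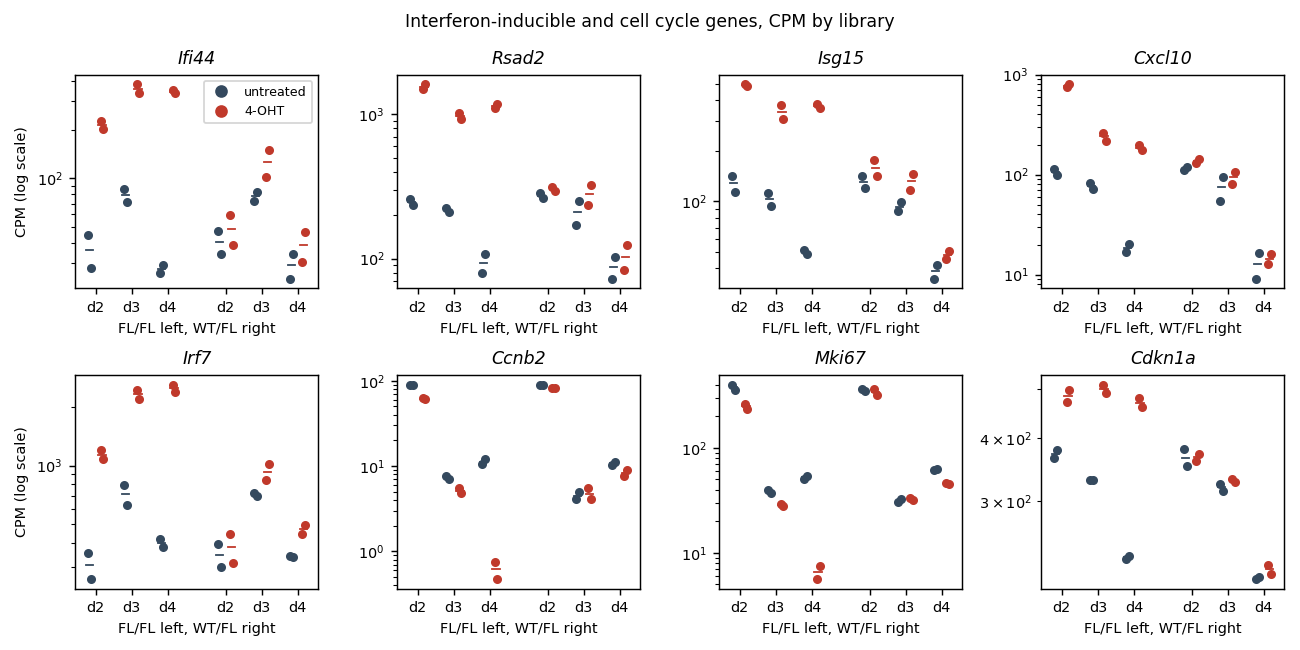
Levels of the ISGs Ifi44, Rsad2, Isg15 and Cxcl10, of Irf7 and of the cell cycle genes Ccnb2, Mki67 and Cdkn1a in CPM on log axes, each dot a library and each short line the mean of 2, with FL/FL on the left and WT/FL on the right. In FL/FL the treated libraries lie above the untreated ones for the ISGs on every day, and below them for Ccnb2 and Mki67, most widely on day 4.

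The averaged effect was made up of unequal days. On day 2, 125 genes were called higher (0.886%) and 19 lower (0.135%). Day 3 had 159 higher (1.13%) and 78 lower (0.553%), and day 4 had 290 higher (2.06%) and 219 lower (1.55%). Of the 199 genes called higher on average, all 199 had the same sign on each day, and 73 were called on all 3 days. Taken singly, day 2 called 104 of them, day 3 called 122 and day 4 called 172. Their median log2 fold change was 1.78, 1.87 and 2.68 on the 3 days. The 104 genes called higher on both day 2 and day 4 were 83.2% of those of day 2 and 35.9% of those of day 4. A test of the treatment-by-day terms found 1092 genes (7.74%) whose effect differed between days at an adjusted p below 0.01.

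For 47 of the 49 antiviral genes the log2 fold change was highest on day 4, and 42 of the 49 passed the day test. Slfn4 had log2 fold changes of 3.03, 3.97 and 5.36 on days 2, 3 and 4 (adjusted p of the day test = 9.32e-09 by edgeR), and Ifit3 had 2.23, 1.63 and 3.08 (adjusted p = 1.9e-08). Csf1 and Slamf7 are examples of called or nearly called genes that did not pass it, at an adjusted p of 0.105 and 0.35.

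Of the 58 tested genes of mitosis, 29 fell on day 2, 7 on day 3 and 54 on day 4, where the share of all tested genes that fell was 5.05%, 7.71% and 11.1%. The list's median log2 fold change was −0.42, −0.20 and −2.00, and 50 of its members passed the day test. Averaged over the days, 7 of the 58 fell and 1 rose, where 11.5% and 12.5% of all tested genes did. In WT/FL cells the averaged median of the list was −0.14. Between the genotypes, 2 of the 58 differed downward and 1 upward at an adjusted p below 0.01 by edgeR. Of all tested genes, 4.63% differed downward and 8.33% upward. That fit holds a single treatment effect per genotype over the days, so its spread includes any difference between days. It therefore cannot tell whether the decrease of day 4 differed between the genotypes. The list summed to 4564 and 4104 CPM in untreated cells on day 2, 579 and 543 on day 3, and 768 and 793 on day 4. The treated libraries summed to 3369 and 3146, 549 and 510, and 370 and 370 CPM. Both arms were thus lower on day 3 than on day 2, and on day 4 the untreated level was above that of day 3 while the treated level was not. Untreated WT/FL cells had sums of 4355 and 4113, 512 and 503, and 846 and 868 CPM. Those of treated WT/FL cells were 4039 and 3989, 522 and 482, and 734 and 724 CPM.

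Ccnb2, which encodes cyclin B2 of the mitotic kinase, was at 63 and 60.6 CPM in treated cells on day 2, 5.48 and 4.84 on day 3, and 0.759 and 0.476 on day 4. Untreated cells had 88.4 and 90.4, 7.57 and 7.09, and 10.5 and 12.1 CPM. The log2 fold changes by day were −0.54, −0.52 and −4.19 (adjusted p of the day test = 9.29e-11 by edgeR), and the average of −1.23 did not pass the test (adjusted p = 0.0804). Nusap1, a spindle protein gene, had the same course at −0.35, −0.24 and −4.22. Mki67, which encodes the proliferation marker Ki-67, had 262 and 235, 28.9 and 27.8, and 5.64 and 7.52 CPM in treated cells, against 402 and 353, 39.8 and 36.9, and 50.6 and 54.1 CPM in untreated cells. Its log2 fold change was −3.01 on day 4 (adjusted p = 4.7e-11 by edgeR) and −1.21 on average (adjusted p = 0.047). Pttg1, which encodes securin, went the other way, from 17.9 to 22.9 CPM in untreated to 33.1 to 38.8 CPM in treated libraries (0.81, adjusted p = 3.86e-07).

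The list of DNA replication and nucleotide synthesis, with 50 tested genes, fell in 15 and rose in 2 on average, and fell in 23 on day 4. Of all tested genes, 11.5% fell and 12.5% rose on average, and 11.1% fell on day 4. The averaged median of the list was −0.29 in FL/FL and −0.01 in WT/FL. Between the genotypes, 6 of the 50 differed downward and 1 upward at an adjusted p below 0.01 by edgeR. The shares of all tested genes were 4.63% and 8.33%. Mcm7, a subunit of the replicative helicase, stood at 61.5 to 65.3 CPM on day 2 in treated against 81.5 to 86.8 CPM in untreated cells, and the averaged change was −0.68 (SE 0.0744, adjusted p = 6.44e-06 by edgeR). The checkpoint mediator Clspn changed by −0.96 (adjusted p = 0.00945). The nuclease genes Exo1, Fen1 and Dna2, which act on DNA ends and on flaps of Okazaki fragments, had log2 fold changes of −0.40, −0.09 and −0.31, and none passed the test. Of 20 tested genes of E2F, RB and the G1 cyclins, 4 rose and 8 fell. The increase of Ccnd2, which encodes cyclin D2, was the 1 called, from 1.61 to 15.1 CPM in untreated to 10.6 to 44.8 CPM in treated cells (2.25, SE 0.304, adjusted p = 0.000443 by edgeR). Ccnd1 rose by 0.59 (adjusted p = 0.0054), and Ccne2 and E2f7 fell by 0.87 and 1.08.

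Cdkn1a, which encodes the CDK inhibitor p21, was at 472 and 497 CPM in treated cells on day 2, 510 and 490 on day 3, and 479 and 460 on day 4. Untreated cells had 366 and 378, 330 and 330, and 231 and 234 CPM. The averaged log2 fold change was 0.65 (SE 0.0809, adjusted p = 5.26e-05 by edgeR), with 0.37, 0.59 and 0.99 by day. Among 28 tested p53 targets 7 rose and 3 fell, where 12.5% and 11.5% of all tested genes did. Gdf15, a stress cytokine, rose by 0.59, and Sesn1 fell by 0.55.

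The promoters shown next belong to the 3 mitosis genes of largest averaged change with the core of a cell cycle genes homology region (CHR), TTTGAA, a DNA element of late cell cycle genes, in the 250 bases before the start. TTTGAA is in capitals where it lies on the printed strand. Positions in GRCm39 are chr9:70328951-70329050 (minus) for Ccnb2, chr7:135318154-135318253 (minus) for Mki67 and chr8:22675884-22675983 (minus) for Ckap2, and the sequences come from the same RefSeq table.
Ccnb2: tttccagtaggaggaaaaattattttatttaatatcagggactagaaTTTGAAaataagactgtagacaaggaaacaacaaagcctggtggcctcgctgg
Mki67: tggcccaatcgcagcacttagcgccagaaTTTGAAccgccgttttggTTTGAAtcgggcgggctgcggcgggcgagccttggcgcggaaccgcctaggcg
Ckap2: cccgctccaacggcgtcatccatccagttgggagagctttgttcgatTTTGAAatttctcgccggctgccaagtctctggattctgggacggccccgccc

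TTTGAA, on either strand, was found in 33 of 48 windows of mitosis genes (68.8%) and in 12.5% of all tested genes with a window, against 22.5% of genes called higher and 10.9% of genes called lower. CCAAT, the binding motif of NF-Y, was found in 36 of 48 windows of mitosis genes (75%) and in 39.3% of all tested genes. Over the whole table the shares were 18.1% for TTTGAA and 37.9% for CCAAT.

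**Figure D3:**
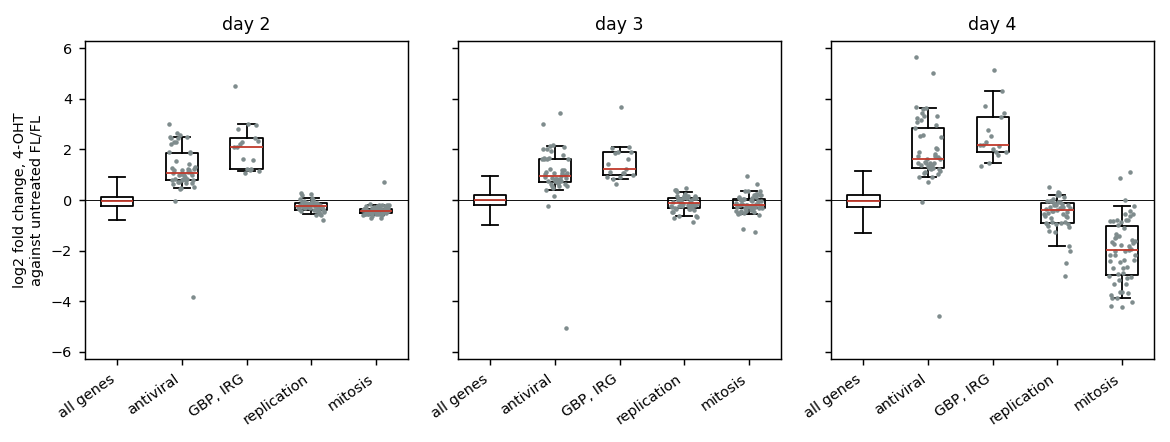
Log2 fold changes of 4-OHT-treated over untreated FL/FL cells on each day, for all tested genes and for the lists of antiviral effectors, GBP and IRG GTPases, DNA replication and mitosis. Boxes show the median and quartiles, whiskers the 5th to 95th percentile, and dots the genes of a list. The mitosis median is −0.42 on day 2 and −2.00 on day 4, and the lone low dot of the antiviral list is Shisa5.

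Of the remaining lists, that of ATF4 and the unfolded protein response had 13 of 25 genes higher and 1 lower, with 3 called. Trib3, a pseudokinase gene induced by amino acid and endoplasmic reticulum stress, was at 31 and 32.9 CPM in treated cells on day 2, 29.3 and 27.2 on day 3, and 21.5 and 23.8 on day 4. Untreated cells had 11.9 and 13.7, 2.43 and 1.7, and 4.34 and 4.1 CPM (2.38, SE 0.361, adjusted p = 0.000959 by edgeR). Its largest difference, unlike that of the ISGs, was on day 3, with 1.31, 3.76 and 2.40 by day. Chac1, which encodes a glutathione-degrading enzyme, was called at 1.82 (adjusted p = 7.46e-06) and the asparagine synthetase gene Asns rose by 1.39 (adjusted p = 0.00144). Ddit3, which encodes CHOP, was called at 1.89, and 74.9% of its 31-base words are shared with other genes, 59.1% with Mars1.

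Among 23 tested genes of cell death 12 rose and 2 fell, with Mlkl, the executor of necroptosis, at 1.11 and Casp4, the sensor of cytosolic lipopolysaccharide, at 1.02. In this list Nlrp3 was called lower, as described below. Glycolysis and hypoxia genes fell in 7 and rose in 4 of 23, and on day 4 fell in 15, when 11.1% of all tested genes fell. Egln3, which encodes an oxygen-sensing prolyl hydroxylase, was called at −1.51 (adjusted p = 3.47e-06 by edgeR). Of 13 LXR and lipid efflux genes 3 rose and 3 fell, among them Nr1h3, which encodes LXRα, at 0.99 and the cholesterol exporter Abca1 at −0.43. Of 23 cholesterol synthesis genes 1 rose and 1 fell. The 12 tested heat shock genes rose in 4, led by Hspa1a at 0.72 (adjusted p = 0.000134), which shares 70.1% of its 31-base words with other genes. Immediate early genes rose in 8 and fell in 6 of 24, with Atf3 at 0.88 and Egr2 at −0.98, and the 7 CDK inhibitor genes rose in 1, which was Cdkn1a, and fell in 2. The list of phagocytic and lineage receptors rose in 8 and fell in 7 of 25. Beside these averaged counts, 12.5% of all tested genes rose and 11.5% fell, and no list was tested as a set.

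**Figure D4:**
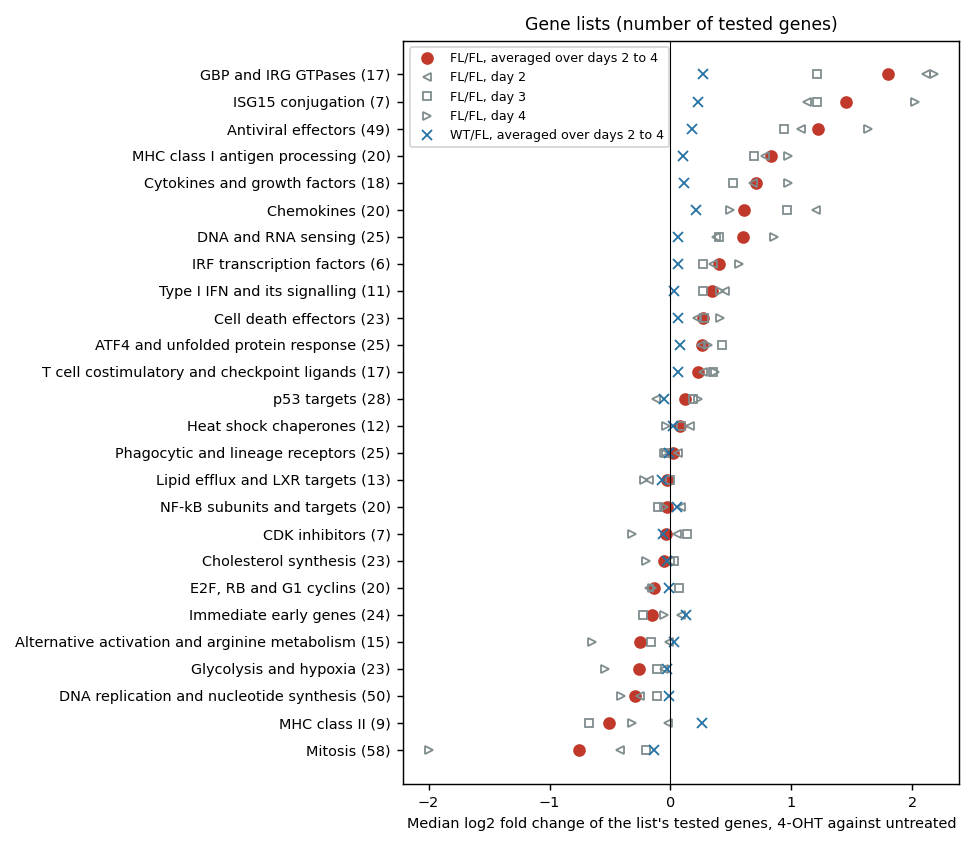
Median log2 fold change of the tested genes of each of 26 lists, averaged over days 2 to 4 in FL/FL (filled circles), on each day in FL/FL (open symbols) and averaged in WT/FL (crosses). The GBP and IRG list is highest at 1.80 and the mitosis list lowest at −0.76, and the day 4 median of mitosis is −2.00.

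The median log2 fold change of the genes called lower was −1.34, −2.19 and −2.29 on days 2, 3 and 4, and of the 57 called on average, 8 were called on all 3 days. Day 2 called 14 of the 57, day 3 called 36 and day 4 called 40. The 9 genes called lower on both day 2 and day 4 were 47.4% of those of day 2 and 4.11% of those of day 4. F13a1, which encodes coagulation factor XIII A and marks alternatively activated macrophages, was at 26.7 and 28.5 CPM in treated cells on day 2, 20.5 and 25.2 on day 3, and 19.7 and 19.6 on day 4. Untreated cells had 47.5 and 49.9, 132 and 129, and 122 and 106 CPM (−1.98, SE 0.298, adjusted p = 0.000987 by edgeR). The untreated level was thus higher on days 3 and 4 than on day 2 and the treated level was not. Slco2b1, an organic anion transporter gene, went from 5.54 to 16.7 CPM in untreated to 1.55 to 2.23 CPM in treated cells (−2.43, adjusted p = 2.97e-05). Sema6d, which encodes a transmembrane semaphorin, changed by −2.14 (adjusted p = 1.6e-06) and Adam22 by −2.06 (adjusted p = 1.43e-06). Cbfa2t3, a transcriptional corepressor gene, Serpinf1, Dnah2 and Gfra2 changed by −2.63, −2.42, −2.42 and −2.17 at levels of no more than 2.84 CPM. Gfra2 had −0.93 in WT/FL, and its difference between the genotypes did not pass the test (adjusted p = 0.0757 by edgeR). The differences of Cbfa2t3 and Dnah2 did (adjusted p = 0.000298 and 0.000297).

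The list of alternative activation and arginine metabolism had 4 genes higher and 4 lower of 15 tested, with 1 called higher, Nos2, and 3 called lower. Among all tested genes 12.5% rose and 11.5% fell, and 1.41% were called higher and 0.404% lower. Clec10a, which encodes the galactose-type lectin CD301a, was at 13.8 and 12.7 CPM in treated cells on day 2, 31.1 and 30.1 on day 3, and 30.3 and 28 on day 4. Untreated cells had 25.3 and 23.2, 227 and 229, and 114 and 114 CPM (−1.98, SE 0.3, adjusted p = 0.00103 by edgeR), and of the genes tested it had the smallest p of the day test. In WT/FL cells its log2 fold change was −1.12 (adjusted p = 0.0288 by edgeR). The difference of −0.85 between the genotypes did not pass the test (adjusted p = 0.0754). Its neighbour in function Mgl2, which encodes CD301b, had 10 counts in all treated libraries together and 679 in the untreated. The ratio of untreated to treated counts was 62.3, with an exact 95% interval from 33.7 to 131. Cd163, the haemoglobin scavenger receptor gene, changed by −1.80 (adjusted p = 0.00331) at no more than 1.05 CPM. It had −0.52 in WT/FL, and the difference between the genotypes did not pass the test (adjusted p = 0.061 by edgeR). Mrc1, which encodes the mannose receptor, fell by 0.63 (adjusted p = 0.000554), from 811 to 1158 CPM in untreated to 460 to 833 CPM in treated libraries. Tfrc and Pf4, the transferrin receptor and platelet factor genes, were among the 5 genes with the smallest p of the day test, with 0.00, −0.77 and −1.48 and with −0.28, −0.82 and −1.90 by day, and neither passed the averaged test (adjusted p = 0.0257 and 0.0124 by edgeR).

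In WT/FL cells, which share the exposure and keep 1 Trex1 allele, 4-OHT gave 0 genes called higher (0%) and 4 called lower (0.0271%) of 14760 tested with edgeR. At an unadjusted p below 0.05 by edgeR, 642 of these 14760 genes were higher and 517 lower. DESeq2 called 2 genes higher and 8 lower, and put 20 higher and 70 lower at an adjusted p below 0.01 with any fold. These counts over all genes are the background for the WT/FL counts that follow. The median log2 fold change of all tested genes in WT/FL was −0.00, and the share with each sign was not counted. Of the 199 genes called higher in FL/FL, 176 had the same sign in WT/FL with a median log2 fold change of 0.28, 34 reached an unadjusted p below 0.05 and 0 an adjusted p below 0.01 by edgeR, against 2 by DESeq2. Of the 57 called lower, 46 had the same sign with a median of −0.38, and 8 fell in WT/FL as well, where 0.305% of all tested genes fell. An unadjusted p below 0.05 by edgeR was reached by 17 of the 57, and an adjusted p below 0.01 by DESeq2 by 10.

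Tested as a difference between the genotypes, the effect of 4-OHT was more positive in FL/FL for 129 genes (0.874%) and more negative for 28 (0.19%) at the thresholds for calling. Of the genes called in FL/FL, 155 of the 199 higher and 27 of the 57 lower differed in the same direction at an adjusted p below 0.01, where 8.33% and 4.63% of all genes did. The called genes were chosen by the FL/FL effect that enters this difference, so the comparison with all genes is not independent of the choice. The largest positive differences were those of Gm47336 (3.94, adjusted p = 0.000662 by edgeR), Gbp10 (3.87), Cxcl11 (3.83), Pou3f1 and Apol9a (3.62 each). Pou3f1 thus had a log2 fold change of 0.49 in WT/FL cells, with an adjusted p of 0.811. The largest negative differences were those of Trex1 (−9.28), Shisa5 (−3.73), the lectin genes Cd209f (−3.40) and Cd209g (−3.18), and Mgl2 (−3.05). The 2 Cd209 genes were at or near 0 counts in all libraries of day 2, and their untreated levels reached 4.06 and 1.2 CPM on day 4. Among 49 antiviral genes 46 differed upward and 1, Shisa5, downward.

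Some genes fell in both genotypes. Vegfa, which encodes vascular endothelial growth factor A, was at 8.26 and 8.94 CPM in treated FL/FL cells on day 2, 32.1 and 37.7 on day 3, and 92.8 and 87.2 on day 4. Untreated FL/FL cells had 29.5 and 28.7, 143 and 154, and 190 and 172 CPM. The averaged change was −1.61 (SE 0.167, adjusted p = 8.27e-05 by edgeR) in FL/FL and −1.57 (SE 0.168, adjusted p = 6.32e-05) in WT/FL, and the difference of −0.02 had a standard error of 0.236. Nlrp3, the inflammasome sensor gene, changed by −1.57 (SE 0.0762, adjusted p = 1.91e-08) and −1.28 (adjusted p = 7.65e-09) in the 2 genotypes. Mex3b, an RNA-binding protein gene, changed by −3.46 (SE 0.216, adjusted p = 5.6e-07) and −2.94 (adjusted p = 1.99e-06). N4bp3 changed by −1.91 and −1.45. Samd5 changed by −1.83 and −2.82, at no more than 1.3 CPM in FL/FL. For Vegfa, Nlrp3, Mex3b, N4bp3 and Samd5 the difference between genotypes did not pass the test, whereas for Mgl2, at −5.91 and −2.87, it did (adjusted p = 0.00168 by edgeR).

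**Figure D5:**
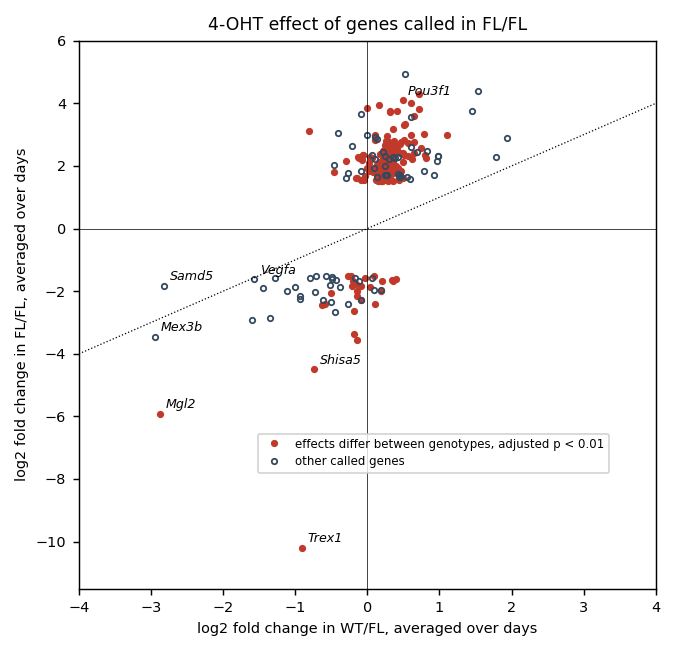
Averaged log2 fold change of 4-OHT over untreated cells in WT/FL (horizontal axis) and FL/FL (vertical axis) for the genes called in FL/FL, each dot a gene, with the line of equal effects dotted and filled dots where the genotypes differed at an adjusted p below 0.01. Genes called higher have a median of 0.28 in WT/FL, while Vegfa, at −1.57 and −1.61, lies close to the line.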

How the data were processed

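BMDM libraries were sequenced on an Illumina NovaSeq 6000. Per the study's methods, reads were demultiplexed with JE, checked with FastQC (11.9 in the submitters' processing notes) and quantified by Salmon on GRCm39, and tximport summed transcripts to genes. The notes also name DESeq2 1.32. The annotation release and the Salmon version are not given in the sources used here. The authors deposited estimated counts per gene for all 32 libraries in 1 table, without normalization. Every per-sample column matched a label, and groups came from the labels.

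The estimated counts were rounded and tested with edgeR 4.0.16 (R 4.3.3; limma 3.58.1): trimmed mean of M-values scaling, filterByExpr with a minimum count of 10, glmQLFit (robust) and glmQLFTest. The averaged fit had day and treatment as terms over 12 libraries (14106 genes, 8 residual degrees of freedom). Effects by day and the treatment-by-day test used group means of the same libraries (6 residual degrees of freedom), and WT/FL effects and genotype differences a fit of 24 libraries (14760 genes, 16 residual degrees of freedom). Thresholds were those of the study, adjusted p below 0.01 and log2 fold change beyond 1.5. The SE is the log2 fold change divided by the square root of F. The CPM use factors of the 24 libraries, and fold changes a prior count of 0.125. Intervals and floors cover counting error only. The scripts were tested on simulated data.

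The members and lists were chosen with earlier results of these data known. Genes named are Trex1 and Atrip, the study's own marker and PCR genes, the 12 largest increases and decreases called, separated on every day and at 1 CPM or more in 1 arm, every member of lists of up to 15 tested genes or else the 4 largest changes, the 5 largest genotype differences each way, the 5 largest effects shared by both genotypes, the 5 smallest p-values of the day test, and Exo1, Fen1 and Dna2. The further neighbours of Trex1, Cgas, Sting1 and the cell type markers shown are additions made after their values were seen. Symbols came from GENCODE vM39, which matched 51048 of 54281 identifiers and left 0.32% of counts unmatched. Shared 31-base words were counted over its transcripts. The RefSeq promoter table matched 10096 of 14096 tested symbols. A promoter was printed only where the motif lies before the start, so Ifi44 was passed over. A gene is not reported here.

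Alternatives were DESeq2 1.42.0, other scalings, filters and thresholds, glmTreat, a fit of all 32 libraries, and leaving out each library or day. Some for WT/FL, the day effects and the genotype difference, and a replicate block, were chosen after seeing the data.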

Additional observations from a re-analysis of the deposited data

Results flagged for a closer look

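The effect of 4-OHT differed between FL/FL and WT/FL by a test of the difference for 129 genes that were more positive and 28 that were more negative in FL/FL. The 5 largest positive differences on the log2 scale were those of Gm47336 (3.94), Gbp10 (3.87), Cxcl11 (3.83), Pou3f1 (3.62) and Apol9a (3.62). The 5 largest negative differences were those of Trex1 (−9.28), Shisa5 (−3.73), Cd209f (−3.40), Cd209g (−3.18) and Mgl2 (−3.05). Gm47336 lay between 0.244 and 0.949 CPM in treated and between 0.0265 and 0.0868 CPM in untreated FL/FL libraries.

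The effect differed between days 2, 3 and 4 in FL/FL for 1092 genes by the treatment-by-day test.

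In the libraries of day 1, which entered no comparison, Shisa5 was already at 45.5% of its untreated level in FL/FL. It stood at 106 and 111 CPM in treated and at 261 and 215 CPM in untreated FL/FL libraries, and at 189 and 183 against 259 and 254 CPM in WT/FL. Trex1 had 0 counts in both treated FL/FL libraries of that day and 1907 and 1811 in the untreated ones. Atrip had 15.2 and 15.9 against 15.9 and 15.8 CPM.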

How the results depend on the processing

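The 199 genes called higher became 9 when edgeR tested against the fold threshold itself (glmTreat), 367 at a log2 threshold of 1 and 2411 at an adjusted p below 0.05 with any fold. The 57 called lower became 4, 144 and 2608 under the same 3 changes, 85 with a mean per group in place of day and treatment terms, 101 with such means over all 32 libraries, and 96 with no filter on low counts. The count of 57 became 91 without day 2, 26 without day 3 and 30 without day 4, so it depends on which days enter the average. Leaving out 1 library gave 169 to 204 genes higher and 35 to 66 lower, and the lowest count of 35 came without replicate 2 of treated FL/FL cells on day 4. It gave 120 to 163 calls on day 2 (144 with all libraries), 194 to 241 on day 3 (237), 453 to 506 on day 4 (509), 826 to 1177 genes in the day test (1092), 128 to 163 genotype differences (157) and 2 to 5 calls in WT/FL (4), with 2 when replicate 2 of treated WT/FL cells on day 3 was left out. With no filter the day test found 1717 genes and WT/FL gave 31 calls. At an adjusted p below 0.05 with any fold 3019 genes differed between genotypes, and in WT/FL DESeq2 called 10 genes. The cause was not tested. Of the averaged calls, edgeR made 256 and DESeq2 292, with 254 shared. Of the named genes none reversed its direction under the alternatives run. Under the alternatives other than leaving out 1 library, 55 named genes lost their call in at least 1 setting and 11 gained one. Without 1 library, Stat2, Il27, Csf1, Egln3, Cd163, Cd209g and Samd5 lost their call. The median log2 fold changes of the lists moved by more than the spread between replicates for 21 of 26 lists when a day was left out and for 6 when 1 library was. That of mitosis was −1.02 without day 2, −0.97 without day 3 and −0.32 without day 4, and that of antiviral effectors 1.34, 1.35 and 1.01. The medians near 0 of the NF-kB, CDK inhibitor, LXR and lineage receptor lists changed sign in some of these settings. The labels give no replicate numbers, but the sample numbers in the titles form 2 runs that each hold every group once. Over the 15 pairs of groups, the deviations of the runs correlated across genes between −0.0197 and 0.17, with 3 pairs over 0.1, so the numbers were not taken to pair the libraries. With the run as a replicate block, added after seeing the data, 200 genes were called higher and 52 lower, 1535 passed the day test, and 156 differed between genotypes.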
